A study of Homo sapiens with 24 samples.

Results

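The 33 genes described here encode the proteins that burn fatty acids in mitochondria and peroxisomes, an early and a late enzyme of the ketone body pathway, and 3 regulators of fuel use. They were chosen by name, as the probes whose RefSeq transcript belongs to a listed gene. This rule uses no measured value, but the list was made with earlier results of these data known. All 33 were found, by 40 probes, and all 33 were tested among 24643 genes. Of these genes 15997 have a symbol, and the rest are probes without one, counted as genes in every share of all genes. 6 of the 33 members have more than 1 probe, and such a gene is represented by its brightest probe on average.

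Fatty acids enter the liver cell through transport proteins, are activated to acyl-CoA, and reach the mitochondrial matrix as carnitine esters. There acyl-CoA dehydrogenases, hydratases, hydroxyacyl dehydrogenases and thiolases shorten the chain step by step, electron transfer flavoproteins pass the electrons to the respiratory chain, and auxiliary enzymes handle double bonds. Peroxisomes take very long and branched chains, and in the fasting liver, under the nuclear receptor PPARα and its coactivator PGC-1α, the acetyl-CoA that is formed feeds ketone bodies.

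The arrays hold RNA of HepaRG cells, an established human liver progenitor line that can form hepatocyte-like and biliary-like cells. Cells were left untransfected, electroporated with 80 pmol of a control siRNA, electroporated with 80 pmol of 1 siRNA against β-catenin (CTNNB1), or left untransfected and given 300 ng/ml of FZD8_CRD, the Wnt-binding extracellular domain of the Frizzled 8 receptor. Each of these 4 states was kept without or with 200 ng/ml of Wnt3a for 72 h in medium without serum, both proteins being mouse recombinant, which gives 8 conditions with 3 cultures each and 24 arrays. FZD8_CRD was given to cells that were not transfected, so that its reference is the untransfected cells. Since 1 siRNA was used, effects of its sequence on other transcripts cannot be told apart from the lowering of CTNNB1.

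A value is the log2 of a probe's signal divided by the 75th percentile of its array, so that 0 is the level of that percentile and the lowest value the scale can take is -6.13. Between 58.3% and 66.5% of the spots of an array were well above background. Of the members, 32 were well above background on all 24 arrays, and the exception is BDH1. The 3 arrays per condition limit the precision of every value. Called means a Benjamini-Hochberg adjusted p under 0.05 in limma, adjusted over all 24643 genes, and the replicate number is also the slide, so that each slide gives 1 difference per comparison.

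The siRNA lowered its target. CTNNB1, which encodes β-catenin, read 0.26, 0.35 and 0.52 in replicates 1, 2 and 3 after the β-catenin siRNA and 3.35, 3.37 and 3.51 after the control siRNA. With Wnt3a the values were 0.33, 0.53 and 0.77 against 3.39, 3.62 and 3.67. The groups are far apart, and CTNNB1 fell by 3.03 without Wnt3a (adjusted p = 1.15e-09) and by 3.02 with it (adjusted p = 7.62e-10), lower on 3 of 3 slides in each.

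Some arrays stand apart from their condition. FZD8_CRD replicate 3 correlated at 0.986 to 0.988 with the other arrays of its condition and at 0.992 to 0.996 with the arrays given FZD8_CRD and Wnt3a. The median deviation of the 33 members from their mean over all arrays was -0.45 on that array and 0.07 and -0.04 on its partners. Its label may be wrong, which these values cannot settle, and it was kept as labelled, so that every FZD8_CRD value without Wnt3a includes it unless stated. Untransfected with Wnt3a, replicate 2 had a median deviation of -0.34, against 0.12 and 0.25 on its partners. Counts and genes that rest on these arrays are also given without them, gathered at the end of each comparison, and untransfected replicate 1 stands out for hepatocyte markers, as described at the end.

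Members sat highest in untransfected cells without Wnt3a and lowest with FZD8_CRD and Wnt3a together. Of 33 members, 24 had their highest condition mean in the former and 24 their lowest in the latter, and after scaling to the spike-in probes these counts were 29 and 28. The distance between the highest and the lowest condition mean ran from 0.38 for ECHS1, the short-chain enoyl-CoA hydratase, to 2.78 for PPARGC1A, which encodes PGC-1α, among the 32 members above background everywhere. BDH1, a ketone body dehydrogenase, was at the floor in 4 conditions, so that its distance is only known to be at least 2.81. PPARGC1A was followed by ACADL, the long-chain acyl-CoA dehydrogenase, with 2.40, and by ACOX2, the peroxisomal oxidase of branched chains, with 2.20. The place of ACOX2 rests on untransfected replicate 1, and its SD among the untransfected arrays was 1.24. Replicates differed unequally between conditions. The median SD of the members was 0.06 after control siRNA, against 0.12 over all genes, and 0.33 in untransfected cells with Wnt3a, against 0.21 over all genes.

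**Figure D1:**
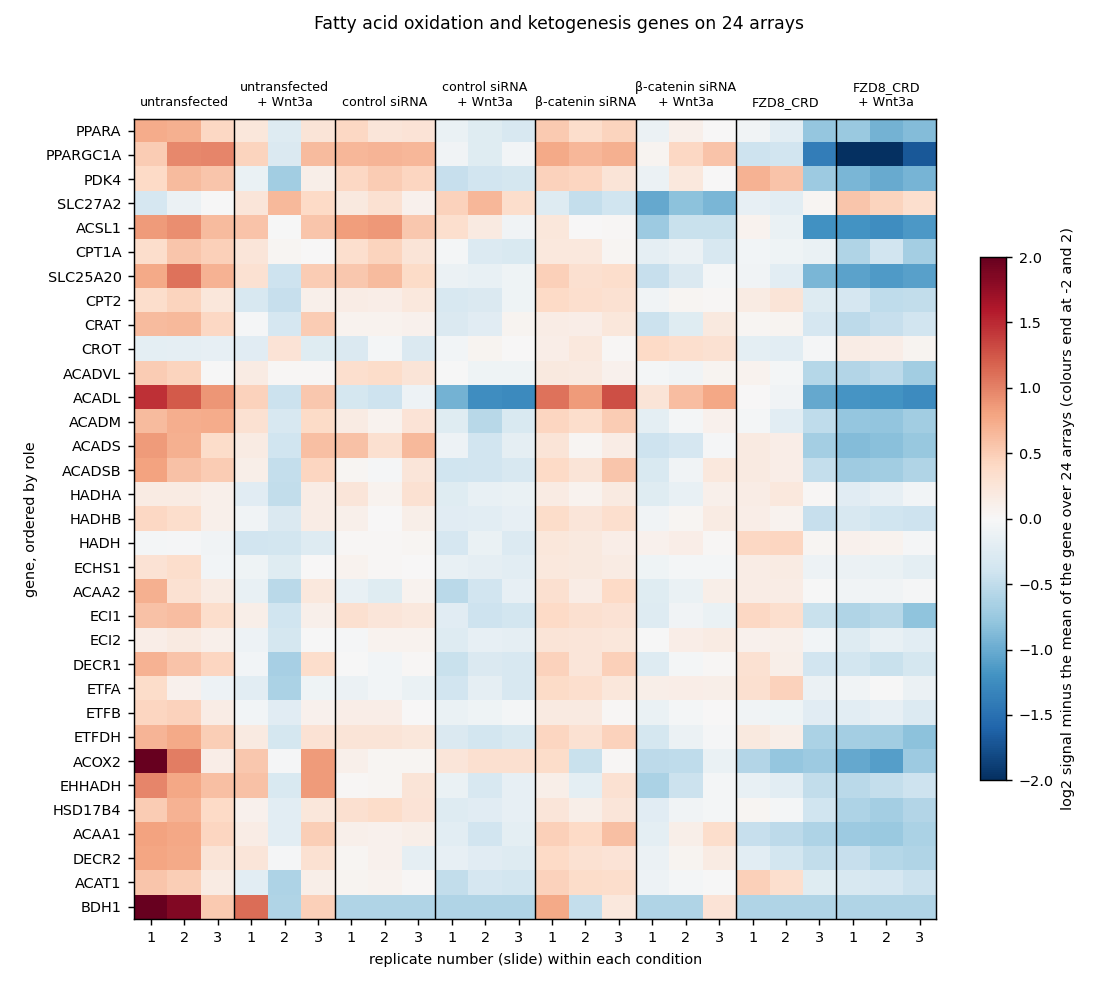
Log2 signal of each of the 33 members on each of the 24 arrays, as the deviation from the gene's mean over all arrays, with arrays grouped by condition and members by role. Colours end at a deviation of 2, and most members are highest in untransfected cells without Wnt3a and lowest with FZD8_CRD plus Wnt3a.

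A scaling to the 7 spike-in probes moves most genes of a comparison by the same amount. Under it the all-gene median was -0.37 for Wnt3a in untransfected cells, 0.18 after control siRNA, -0.31 and 0.25 for control siRNA without and with Wnt3a, -0.21 for β-catenin siRNA with Wnt3a, and -0.46 and -0.16 for FZD8_CRD without and with Wnt3a. Members minus all genes changed little, which such a shift brings about by itself. For Wnt3a in untransfected cells the difference was -0.54 in both scalings, and for FZD8_CRD without Wnt3a it was -0.46, or -0.48 with the spike-ins. Quantile normalization, which is no common shift, gave -0.45 and -0.60. Changes below are given relative to the other genes of the array.

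Wnt3a in untransfected cells asks what the ligand does to cells that were not otherwise handled. Many of the fatty acid oxidation genes were called lower after 72 h in these cells, a count that turned on single arrays, as given below. Of 33 members, 18 fell and 1 rose, where 5.6% of all genes were called and 2.61% were called lower. With the replicate number as a block 22 were called lower and 1 higher, against 11.5% of all genes. The median of the members was -0.52 and that of all genes 0.01, and 31 members lay below 0. All 3 enzymes for unsaturated chains fell, with 3 of 5 hydratases, dehydrogenases and thiolases, 3 of 5 peroxisomal enzymes, 3 of 7 entry proteins, 2 of 5 acyl-CoA dehydrogenases, 2 of 3 electron transfer proteins, 1 of 3 regulators and 1 of 2 ketone body enzymes.

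Among the proteins of entry, CPT1A, the outer-membrane carnitine palmitoyltransferase that sets the pace of import, read 1.51, 1.72 and 1.64 without Wnt3a and 1.41, 1.20 and 1.17 with it. SLC25A20, the carnitine-acylcarnitine carrier, read 2.51, 2.83 and 2.45 without and 2.05, 1.35 and 2.26 with Wnt3a. For neither gene do the groups overlap, and the Wnt3a array of slide 2 is the lowest for SLC25A20. CPT1A fell by 0.36 (adjusted p = 0.0313), SLC25A20 by 0.71 (adjusted p = 0.0395) and CPT2, the inner-membrane partner of CPT1A, by 0.56 (adjusted p = 0.013), each lower on 3 of 3 slides. Among the dehydrogenases, ACADL fell by 1.00 (SE 0.25, adjusted p = 0.0246) and ACADM, which acts on medium chains, by 0.58 (adjusted p = 0.023), on 3 of 3 slides. PPARA, the gene of PPARα, fell by 0.55 (adjusted p = 0.04, 3 of 3 slides), where its second probe, not used in the tests, was at -0.43.

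Further down the spiral, HADH, the short-chain hydroxyacyl-CoA dehydrogenase, fell by 0.29 (adjusted p = 0.0377) and DECR1, the mitochondrial dienoyl-CoA reductase, by 0.68 (adjusted p = 0.0331), on 3 of 3 slides. ETFB, a subunit of the electron transfer flavoprotein, fell by 0.41 (adjusted p = 0.00903), and ETFDH, the dehydrogenase that passes its electrons on, by 0.61 (adjusted p = 0.0392), again on 3 of 3 slides. In the peroxisome HSD17B4, a hydratase and dehydrogenase in a single chain, fell by 0.50 (adjusted p = 0.0129, 3 of 3 slides). ACAT1, the mitochondrial acetoacetyl-CoA thiolase, fell by 0.64 (adjusted p = 0.0222, 3 of 3 slides). ECHS1, ACAA2, ACAA1 and DECR2 were called lower but read higher with Wnt3a on slide 3, so that each was lower on 2 of 3 slides.

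The exception in direction was SLC27A2, a very long-chain acyl-CoA synthetase that also takes up fatty acids. It read 0.04, 0.26 and 0.37 without Wnt3a and 0.63, 1.03 and 0.78 with it. Every Wnt3a array lies above every array without it. SLC27A2 rose by 0.59 (SE 0.11, adjusted p = 0.00677, 3 of 3 slides).

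The count of members called in this comparison turned on single arrays. It rose to 25 without untransfected replicate 3 or the Wnt3a array of slide 3, beside 11.4% and 12.9% of all genes. Without the Wnt3a array of slide 1 it was 13, beside 4.65%. It was 0 without the Wnt3a array of slide 2, with 21 members under an unadjusted p of 0.05 in limma and 180 of all genes called, 2 and 1 without the untransfected array of slide 1 or 2 (1.62% and 1.66% of all genes), 0 when only these 6 arrays were fitted (23 at the unadjusted p, 2 genes called in all), and 2 with the spike-ins. Without that Wnt3a array PPARA, SLC27A2, CPT1A, SLC25A20, ACADL and HSD17B4 were at -0.38, 0.48, -0.33, -0.44, -0.69 and -0.37, and CPT2, ACADM, HADH, DECR1, ETFB, ETFDH and ACAT1 at -0.44, -0.36, -0.28, -0.41, -0.33, -0.41 and -0.45, none of them called. SLC27A2 and HSD17B4 kept their calls without untransfected replicate 1, and SLC27A2 alone without replicate 2, where ACADL was at -0.87 and -0.99. HADH (-0.27) and DECR1 (-0.71) also lost their calls without the Wnt3a array of slide 1, and CPT1A (-0.32) without that of slide 3.

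After control siRNA, the comparison asks for the Wnt3a response of electroporated cells. The members lay lower there as well, and few passed the test. CPT1A fell by 0.55 (SE 0.09, adjusted p = 0.0062) and HSD17B4 by 0.54 (adjusted p = 0.0148), each on 3 of 3 slides, so that 2 of 33 members fell and 0 rose, where 2.11% of all genes were called. With the replicate number as a block 7 of 33 were called, against 4.36% of all genes. At an unadjusted p under 0.05 limma had 24 members, against 14% of all genes.

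CPT1A read between 1.42 and 1.62 after control siRNA, and 1.13, 0.89 and 0.86 with Wnt3a added. HSD17B4 read 3.82, 3.86 and 3.78 without and 3.25, 3.27 and 3.34 with Wnt3a. In both genes the Wnt3a arrays lie wholly below the others. The median of the members was -0.37 beside 0.02 for all genes, and 29 of 33 were lower on all 3 slides. The block brought in PPARA at -0.54 (adjusted p = 0.0344), ACADM at -0.54 (0.0273), ECI1, an isomerase for double bonds, at -0.59 (0.0346), HADH at -0.28 (0.0408) and ACADVL, the very long-chain dehydrogenase, at -0.38 (0.0485), all lower on 3 of 3 slides. The second PPARA probe was at -0.10 here.

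The call of HSD17B4 was lost without control siRNA replicate 1, 2 or 3 (-0.54, -0.52 and -0.56) and without the Wnt3a array of slide 2 (-0.53), which leaves 1 called member in each case, beside 0.377%, 1.04%, 0.231% and 0.345% of all genes. With the spike-ins 0 members were called (1 at the unadjusted p in limma), and a fit to these 6 arrays alone called 21, where it called 5.39% of all genes.

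After β-catenin siRNA, Wnt3a had no called effect on any member. In limma 0 of 33 were called, where 0.0406% of all genes were called, and 20 members had an unadjusted p under 0.05, against 10.4% of all genes. The median of the members was -0.37, beside 0.03 for all genes, and 31 of 33 were lower on all 3 slides. The largest differences were -0.64 for SLC25A20 (adjusted p = 0.268, 3 of 3 slides) and -0.62 for ACSL1, the main long-chain acyl-CoA synthetase (adjusted p = 0.33, 3 of 3 slides). SLC27A2 was at -0.55 (adjusted p = 0.0935, lower on 3 of 3 slides).

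With FZD8_CRD present, the question is what Wnt3a does when its soluble receptor domain is in the medium. Many members were called lower again, a count that also turned on single arrays, as given below. Of 33, 16 fell and 1, SLC27A2, rose, where 8.29% of all genes were called and 3.94% were called lower. All 3 regulators fell, with 4 of 5 acyl-CoA dehydrogenases, 4 of 7 entry proteins, 2 of 3 enzymes for unsaturated chains, and 1 each of the electron transfer, peroxisomal and ketone body genes, whereas 0 of 5 hydratases, dehydrogenases and thiolases were called in limma (4 of 5 at an unadjusted p under 0.05). Probes not used in the tests were weaker for PPARA, at -0.25 against -0.50. They were also weaker for ACADSB, an acyl-CoA dehydrogenase, at -0.16 against -0.61. For ACAT1 they were at -0.56 and -0.58, against -0.55.

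PPARGC1A read 1.10, 1.12 and 0.13 with FZD8_CRD and -0.57, -0.60 and -0.18 with Wnt3a added. PDK4, the kinase that shuts pyruvate dehydrogenase and so favours fatty acids as fuel, read 1.96, 1.84 and 0.54 and, with Wnt3a, 0.36, 0.26 and 0.34. The arrays with Wnt3a lie below the others in both genes, and FZD8_CRD replicate 3 lies close to them. PPARGC1A fell by 1.23 (SE 0.23, adjusted p = 0.00334) and PDK4 by 1.13 (adjusted p = 0.00809), on 3 of 3 slides. CPT1A fell by 0.46 (adjusted p = 0.00568) and ECI1 by 0.76 (adjusted p = 0.00809), on 3 of 3 slides, whereas ACSL1 fell by 0.77 (adjusted p = 0.0376) with 2 of 3 slides lower. SLC27A2 rose by 0.55 (adjusted p = 0.0059, 3 of 3 slides), from 0.22, 0.18 and 0.42 to 0.94, 0.82 and 0.72, without overlap.

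Without FZD8_CRD replicate 3, 23 of 33 members were called, where 19.9% of all genes were. PPARGC1A was then at -1.56, PDK4 at -1.58, CPT1A at -0.49, ECI1 at -1.03, ACSL1 at -1.17 and SLC27A2 at 0.63, all called, and ACADS, HADHB, HADH, ECHS1, DECR1 and ETFA entered at -0.98, -0.48, -0.38, -0.31, -0.61 and -0.46. The count was 2 without FZD8_CRD replicate 1 or 2, namely PPARGC1A and CPT1A (1.41% and 1.49% of all genes), 7, 6 and 6 without the array with Wnt3a of slide 1, 2 or 3 (3.54%, 3.56% and 4.99%), 0 of 33 when only the 6 arrays were fitted in limma (22 at the unadjusted p), and 1 with the spike-ins. Without FZD8_CRD replicate 1 or 2, SLC27A2 was at 0.53 and 0.50 and PDK4 at -0.87 and -0.93, and ACSL1 lost its call without any of the other 5 arrays (-0.53 and -0.63, then -0.78, -0.75 and -0.80). With the replicate block, ACADS at -0.70 (adjusted p = 0.0383) and HADH at -0.26 (0.0282) were called too, lower on 3 of 3 slides.

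These 4 Wnt3a comparisons share no array, and their values for a member stand side by side. For CPT1A the log2 fold changes were -0.36, -0.55, -0.36 and -0.46 in untransfected, control siRNA, β-catenin siRNA and FZD8_CRD cells, and ACADL, which fell by 1.00 in the first, was at -0.86, -0.52 and -0.85 in the others. SLC27A2 differs in sign, with 0.59, 0.29, -0.55 and 0.55. CROT, the peroxisomal carnitine octanoyltransferase, was above 0 throughout, with 0.12, 0.21, 0.22 and 0.26, and was not called, and its second probe was at 0.43, 0.08, -0.01 and -0.01.

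**Figure D2:**
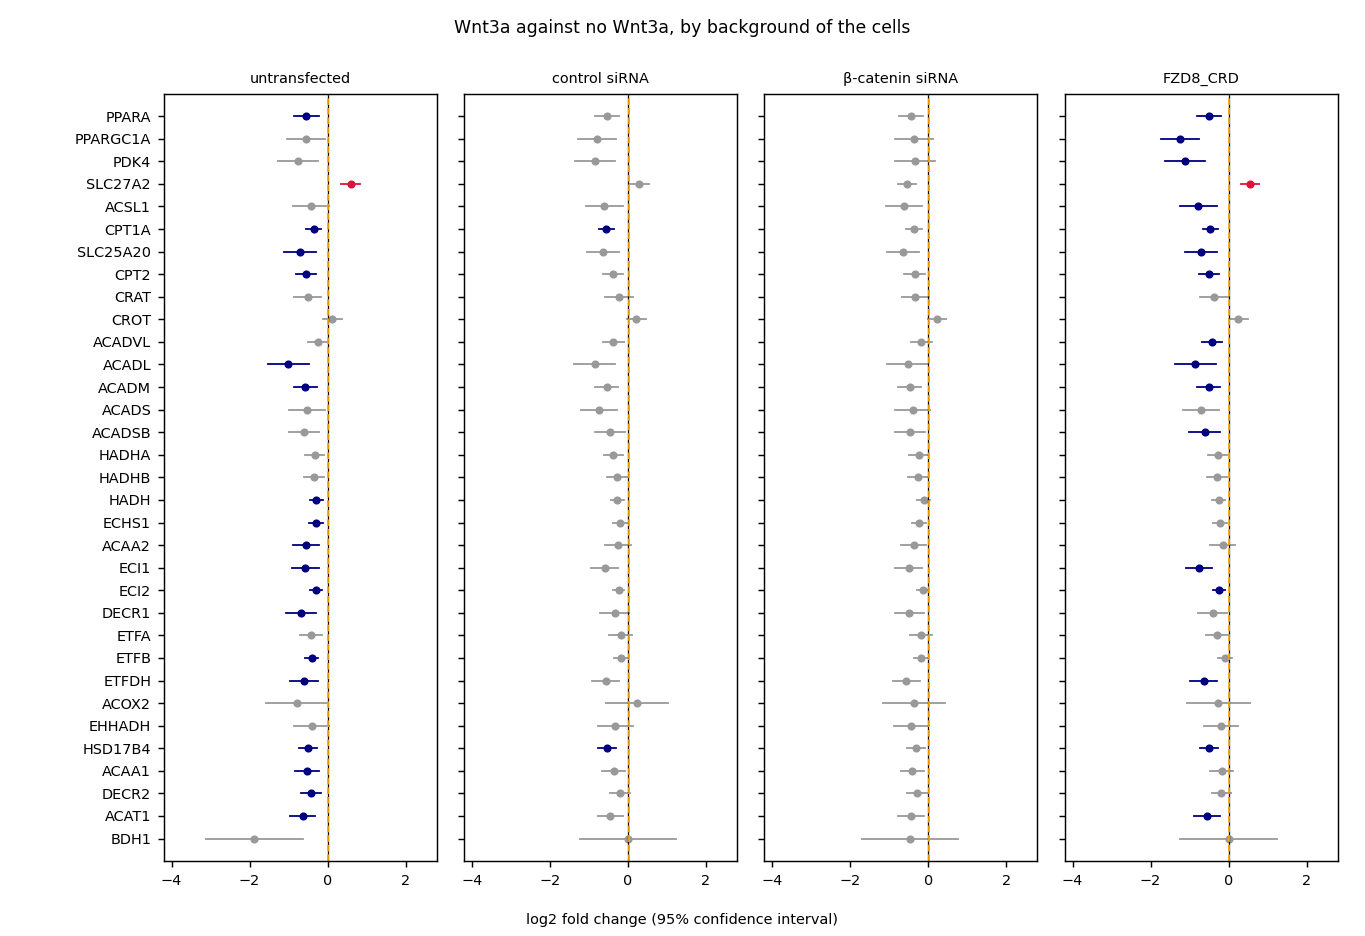
Log2 fold change with Wnt3a for each member in the 4 cell states, with 95% confidence intervals; blue marks members called lower, red called higher and grey not called, and the dashed line is the median of all genes. Most members lie below 0 in each panel, and SLC27A2 is called higher in 2 of the 4 panels.

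The differences between these effects were tested as interactions. For β-catenin siRNA against control siRNA, limma called 0 of 33 members, where 0.0162% of all genes were called, and 1 member had an unadjusted p under 0.05, against 3.34% of all genes. That member is SLC27A2, whose Wnt3a effect differed by -0.84 (interval -1.17 to -0.50, adjusted p = 0.125). A fit to the 4 conditions alone gave it an adjusted p of 0.0472. For FZD8_CRD against untransfected cells limma called 0 of 33, where 0.073% were called in all, and 2 members had an unadjusted p under 0.05, against 12.7% of all genes. Without FZD8_CRD replicate 3, 3 of 33 members were called, near the 7.75% of all genes: PPARGC1A, whose Wnt3a effect was lower by 1.00 (adjusted p = 0.029), PDK4 at -0.82 (0.0181) and ACSL1 at -0.74 (0.0369). Without untransfected replicate 3, where 2.4% of all genes were called, ETFB (0.42) was called, and so was BDH1, which is at the floor in both FZD8_CRD conditions, so that its value only mirrors the change in untransfected cells.

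Control siRNA against no transfection shows what electroporation with an siRNA does by itself, and it shares the untransfected arrays with the comparisons of Wnt3a and of FZD8_CRD in untransfected cells. Some peroxisomal enzymes and acyl-CoA dehydrogenases were lower in the transfected cells. Of 33 members, 12 fell and 1, SLC27A2, rose, where 22.3% of all genes were called and 10.1% were called lower. The median was -0.26 for the members and -0.03 for all genes. Called lower were 4 of 5 peroxisomal enzymes, 3 of 5 acyl-CoA dehydrogenases, 1 of 7 entry proteins and 1 gene each of the hydratases and thiolases, the enzymes for unsaturated chains, electron transfer and ketone bodies, and 0 of 3 regulators were called in limma (1 of 3 at an unadjusted p under 0.05).

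ACADL read 2.46, 2.21 and 1.87 in untransfected cells and 0.63, 0.58 and 0.89 after control siRNA. ACAA1, the peroxisomal thiolase, read 5.30, 5.27 and 4.92 and, after control siRNA, 4.59, 4.58 and 4.60. The groups are separate in both genes, and untransfected replicate 3 is the lowest of its group in each. ACADL fell by 1.48 (SE 0.25, adjusted p = 0.000432), ACAA1 by 0.57 (adjusted p = 0.00654) and DECR2, the peroxisomal dienoyl-CoA reductase, by 0.62 (adjusted p = 0.000998), each on 3 of 3 slides. The second DECR2 probe, not used in the tests, was at -0.31, and at -0.11 with Wnt3a. ACADM fell by 0.53 (adjusted p = 0.0101) and EHHADH, the peroxisomal bifunctional enzyme, by 0.68 (adjusted p = 0.0269), on 3 of 3 slides.

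With Wnt3a in the medium of both groups, 3 of 33 members fell after control siRNA and 0 rose, where 9.03% of all genes were called, so that the share of members is near that of all genes. ACADL fell by 1.33 (SE 0.25, adjusted p = 0.00477), ACADM by 0.49 (adjusted p = 0.0341) and DECR2 by 0.39 (adjusted p = 0.0424), on 3 of 3 slides. The median of the members was -0.23, and 28 lay below 0, but with the spike-ins it was 0.04, and 13 lay below 0. The all-gene median moved as well, from -0.02 to 0.25, and members minus all genes was -0.21 in both. CPT1A was at -0.30 (adjusted p = 0.0529, 3 of 3 slides) and had an adjusted p of 0.0163 with the replicate block.

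Without Wnt3a the count of 13 became 5 without untransfected replicate 1, 7 without replicate 2, 5 without control siRNA replicate 1 or 2 and 5 with the spike-ins. Of all genes 13.7%, 18.7%, 16.2%, 17.3% and 6.57% were called in these fits, so that without any of those 4 arrays the share of members is near that of all genes. ACADL, ACADM, ACAA1, DECR2 and BDH1 were called whichever array was left out, and SLC27A2 at 0.36 (adjusted p = 0.0281, 3 of 3 slides) was not called in any of those 4 fits (0.27, 0.38, 0.36 and 0.31), and neither was EHHADH (-0.58, -0.68, -0.64 and -0.64). ACOX2 lost its call without untransfected replicate 1 (-0.52) or control siRNA replicate 1, 2 or 3 (-1.21, -1.18 and -1.17). With Wnt3a it was 11 without the untransfected array of slide 2, where 16.4% of all genes were called and ACADL, ACADM and DECR2 were at -1.64, -0.71 and -0.49, all called. It was 1, ACADL, without that of slide 1 or 3 or the control siRNA array of slide 2 or 3, where ACADM was at -0.40, -0.36, -0.40 and -0.52 and DECR2 at -0.36, -0.33, -0.39 and -0.37 (1.1%, 5.37%, 1.41% and 4.1% of all genes), and 0 in limma with the spike-ins (1 at the unadjusted p) or when only the 6 arrays were fitted (4 at the unadjusted p). DECR2 also lost its call without the control siRNA array of slide 1 (-0.42).

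β-catenin siRNA against control siRNA compares electroporated cells with and without a lowered CTNNB1, and few members were called here. ACADL rose and SLC27A2 fell, both without and with Wnt3a. Of 33 members, 1 rose and 1 fell without Wnt3a, where 10.6% of all genes were called, and 3 rose and 1 fell with Wnt3a, where again 10.6% were called, so that the shares of members are near those of all genes. With the replicate block the counts were 6, against 16.6% of all genes, and 7, against 15.6%. The medians of the members were 0.15 and 0.23, beside -0.03 and -0.01 for all genes, and 21 and 20 members were higher on all 3 slides. With the spike-ins the median with Wnt3a was 0.03, and 15 members lay below 0 in place of 8. The all-gene median then was -0.21, and members minus all genes was 0.24 in both scalings. These comparisons share the control siRNA arrays with those of control siRNA against no transfection, with the opposite sign, so that a low control siRNA value gives a fall there and a rise here.

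ACADL read 2.08, 1.85 and 2.29 after β-catenin siRNA, where control siRNA gave 0.63, 0.58 and 0.89. With Wnt3a it read 1.26, 1.62 and 1.77, where control siRNA gave 0.05, -0.24 and -0.28. No array of one siRNA reaches the range of the other, and the values after β-catenin siRNA without Wnt3a lie within the range of the untransfected cells, 1.87 to 2.46, but for 1 array at 1.85. ACADL rose by 1.37 (interval 0.85 to 1.89, adjusted p = 0.00121) without Wnt3a and by 1.70 (interval 1.18 to 2.23, adjusted p = 0.000118) with it, on 3 of 3 slides in each.

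SLC27A2 read 0.13, -0.09 and -0.01 after β-catenin siRNA and 0.58, 0.69 and 0.48 after control siRNA. With Wnt3a the values were -0.64, -0.43 and -0.54 against 0.84, 1.05 and 0.74. The groups are apart in both settings, and the lowest of all 24 arrays are those with Wnt3a on top of the β-catenin siRNA. SLC27A2 fell by 0.57 (SE 0.11, adjusted p = 0.00253) and by 1.41 (interval -1.65 to -1.17, adjusted p = 1.11e-07), on 3 of 3 slides in each. Without Wnt3a the call was lost with the spike-ins (-0.48).

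With Wnt3a, HADH rose by 0.33 (adjusted p = 0.01) and ECI2, an isomerase for double bonds in the mitochondrion and the peroxisome, by 0.29 (adjusted p = 0.0106), on 3 of 3 slides. HADH read 4.73, 4.78 and 4.67 with β-catenin siRNA and 4.31, 4.51 and 4.38 with control siRNA, and the groups do not overlap. Neither was called with the spike-ins (0.13 and 0.09), or without control siRNA with Wnt3a replicate 1 (0.28 and 0.27) or β-catenin siRNA with Wnt3a replicate 2 (0.30 and 0.28), where 7.86% and 6.82% of all genes were called, and ECI2 was not called without replicate 3 of the latter (0.26). Without its replicate 1, ACAA1 was called at 0.50 (adjusted p = 0.0363).

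The block added ACSL1, at -0.66 without and -0.68 with Wnt3a (adjusted p = 0.0385 and 0.0351, lower on 3 of 3 slides), CROT at 0.33 and 0.34 (0.0347 and 0.0293), whose second probe was at -0.01 and -0.10, and ETFA, the other subunit of the electron transfer flavoprotein, at 0.42 in both (0.0383 and 0.0411), higher on 3 of 3 slides. DECR2 was added without Wnt3a, at 0.34 (adjusted p = 0.0439, 3 of 3 slides). ACSL1 read 4.54, 4.33 and 4.33 against 5.15, 5.18 and 4.85, and with Wnt3a 3.59, 3.88 and 3.87 against 4.65, 4.50 and 4.24. Its groups do not overlap in either setting. Fitted without the block, ACSL1 had an adjusted p of 0.0667 and 0.06. A fit to the conditions compared called 14 members without and 8 with Wnt3a, where it called 17.5% and 9.08% of all genes.

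The promoters of ACADL and SLC27A2 are shown because these members moved in opposite directions after β-catenin siRNA. RefSeq promoters of 300 bases, GRCh38.p14, were at hand for 26 of the 33 members, as 38 promoters. TCF/LEF factors, the DNA-binding partners of β-catenin, are known for the core CTTTGA. On both strands it lies in the promoters of 4 members, ACADL, ACSL1, CROT and HADH, that is in 10.5% of the member promoters and in 12.9% of all 35116. In capitals is its match on the minus strand of the printed ACADL sequence, and the SLC27A2 sequence holds none. ACADL lies at chr2:210225398-210225697, minus strand, and SLC27A2 at chr15:50181946-50182245, plus strand.
ACADL: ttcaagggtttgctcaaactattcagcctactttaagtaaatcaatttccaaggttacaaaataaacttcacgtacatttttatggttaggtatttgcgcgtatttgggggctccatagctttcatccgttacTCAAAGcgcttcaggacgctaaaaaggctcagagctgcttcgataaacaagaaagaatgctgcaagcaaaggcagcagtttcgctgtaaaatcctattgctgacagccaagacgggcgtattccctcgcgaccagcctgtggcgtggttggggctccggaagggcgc
SLC27A2: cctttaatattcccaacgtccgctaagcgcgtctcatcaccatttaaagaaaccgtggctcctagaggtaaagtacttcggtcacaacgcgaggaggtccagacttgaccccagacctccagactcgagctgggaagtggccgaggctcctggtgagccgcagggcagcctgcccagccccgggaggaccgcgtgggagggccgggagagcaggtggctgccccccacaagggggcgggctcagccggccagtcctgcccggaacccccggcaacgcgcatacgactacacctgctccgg

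In all 7 motifs were searched on both strands, after the results of the members were known. The longer CTTTGAT, which contains the core, lies in the promoter of HADH and in 2.62% of all promoters, and the spaced CTTTGNNC, which can overlap the core, in those of 7 members, among them PPARGC1A, SLC25A20 and ACSL1, and in 15.1% of all. AGGTCA, bound by nuclear receptors such as PPARα, and its longer form AAGGTCA lie in 13.8% and 3.92% of all promoters, the spaced repeats AGGTCANAGGTCA and AGGNCANAGGNCA in 0.0228% and 0.31%, and these 4 in 0 of the 38 member promoters. A match describes letters and no site, and its absence says only that the letters are not in this window.

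FZD8_CRD against untransfected cells asks what the receptor domain does by itself and on top of Wnt3a. Most members were lower in both settings. Without Wnt3a, 22 of 33 fell and 1, HADH, rose, where 41.9% of all genes were called and 22.2% were called lower. With Wnt3a in both groups, 19 fell and HADH rose, where 37.2% were called and 19% were called lower. The medians of the members were -0.55 and -0.67, beside -0.09 and -0.08 for all genes.

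All 5 acyl-CoA dehydrogenases and all 5 peroxisomal enzymes fell in both settings, with 4 of 7 entry proteins in each. Of the regulators 2 of 3 fell without and 3 of 3 with Wnt3a, of the electron transfer genes 2 and 1 of 3, of the enzymes for unsaturated chains 2 and 1 of 3. Of the hydratases, dehydrogenases and thiolases, HADH rose in both settings and HADHB, the thiolase subunit of the trifunctional protein, fell without Wnt3a. BDH1 was called lower without Wnt3a, and ACAT1 in neither.

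Among the regulators, PPARA read 1.01, 0.99 and 0.68 in untransfected cells and 0.20, 0.07 and -0.50 with FZD8_CRD. PPARGC1A read 2.02, 2.48 and 2.49 and, with FZD8_CRD, 1.10, 1.12 and 0.13. The groups are apart, with FZD8_CRD replicate 3 the lowest in each. PPARA fell by 0.97 (adjusted p = 3.95e-05) and PPARGC1A by 1.55 (SE 0.23, adjusted p = 2.66e-05), on 3 of 3 slides. With Wnt3a PPARGC1A fell by 2.22 (SE 0.23, adjusted p = 1.26e-06), PPARA by 0.92 (adjusted p = 9.43e-05) and PDK4 by 0.72 (adjusted p = 0.0269), on 3 of 3 slides. A second PPARA probe, not used in the tests, was at -0.01 without and 0.16 with Wnt3a.

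ACSL1 read 5.17, 5.24 and 4.95 in untransfected cells and 4.38, 4.18 and 3.10 with FZD8_CRD. SLC25A20 read 1.69, 1.54 and 0.85 with FZD8_CRD, where untransfected cells had 2.45 to 2.83. The arrays with FZD8_CRD lie below the others, replicate 3 the furthest. ACSL1 fell by 1.23 (SE 0.23, adjusted p = 0.000197) and SLC25A20 by 1.24 (SE 0.20, adjusted p = 4.58e-05). With Wnt3a they fell by 1.58 (adjusted p = 2.38e-05) and 1.23 (adjusted p = 7.36e-05), all on 3 of 3 slides. SLC27A2, the other synthetase, was at 0.05 and 0.01 and not called (adjusted p = 0.75 and 0.95).

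In the spiral ACADL fell by 1.55 without Wnt3a (SE 0.25, adjusted p = 5.79e-05) and by 1.40 with it (adjusted p = 0.000214), and ACADM by 0.95 (adjusted p = 2.52e-05) and 0.88 (adjusted p = 7.97e-05), on 3 of 3 slides. In the peroxisome ACAA1 read 4.03, 3.97 and 3.88 with FZD8_CRD, below the 4.92 to 5.30 of untransfected cells. ACAA1 fell by 1.20 (SE 0.14, adjusted p = 2.4e-06) and DECR2 by 0.97 (adjusted p = 3.38e-06), and with Wnt3a by 0.85 (adjusted p = 0.00012) and 0.72 (adjusted p = 9.84e-05), on 3 of 3 slides. The second DECR2 probe was at -0.48 and -0.19. ACOX2 fell by 1.94 (SE 0.38, adjusted p = 0.000402, 3 of 3 slides), from -1.88, -3.44 and -4.32 to -5.05, -5.23 and -5.20, and was at -1.28 without untransfected replicate 1 (adjusted p = 0.00122). These groups do not overlap, and the untransfected arrays spread widely.

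HADH went the other way. It read 5.06, 5.08 and 4.69 with FZD8_CRD and 4.61, 4.63 and 4.58 in untransfected cells, and with Wnt3a 4.73, 4.72 and 4.62 against 4.26, 4.28 and 4.39. The groups do not overlap, and FZD8_CRD replicate 3 is the closest to the untransfected arrays. HADH rose by 0.34 (adjusted p = 0.0018, -0.05 and not called with the spike-ins) and by 0.38 with Wnt3a (adjusted p = 0.000891, 0.29 and not called with the spike-ins), on 3 of 3 slides.

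**Figure D3:**
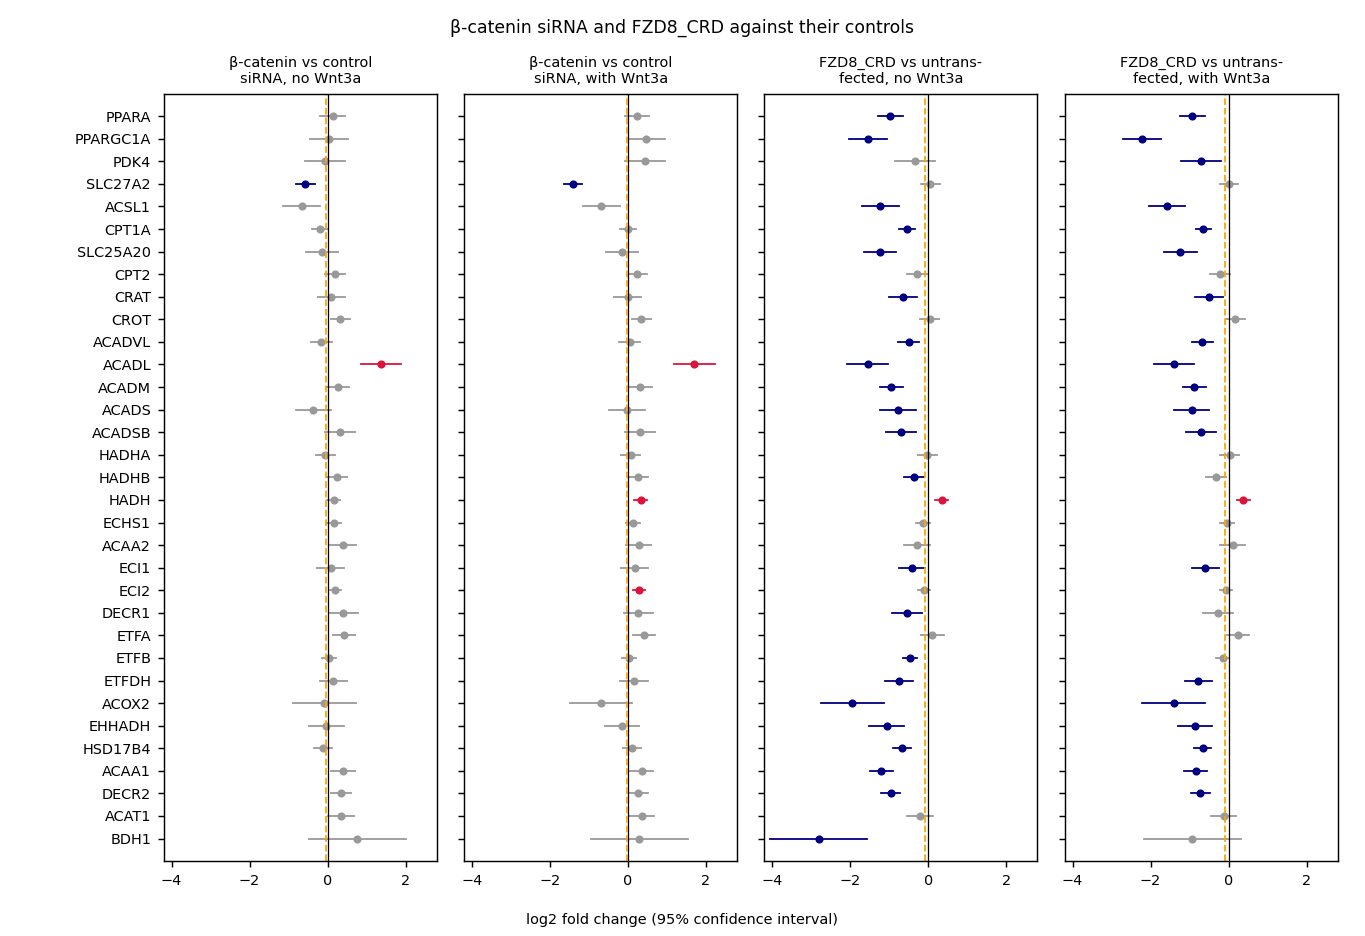
Log2 fold change of each member for β-catenin siRNA against control siRNA and for FZD8_CRD against untransfected cells, without and with Wnt3a, with 95% confidence intervals. Blue marks called lower, red called higher and grey not called, and the dashed line is the median of all genes. ACADL is lower with FZD8_CRD than in untransfected cells, and higher after β-catenin siRNA than after control siRNA.

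Without FZD8_CRD replicate 3, PPARA, PPARGC1A, ACSL1, SLC25A20, ACADL, ACADM, ACAA1, DECR2 and ACOX2 were at -0.76, -1.22, -0.84, -0.99, -1.21, -0.82, -1.16, -0.90 and -1.92, HADH was at 0.47 and BDH1 as low as before, all called. In all 19 of 33 members were called there without Wnt3a, where 40.6% of all genes were, and ACADS at -0.49 (adjusted p = 0.0659), HADHB at -0.19, ECI1 at -0.14 and DECR1 at -0.35 lost their calls; without untransfected replicate 1 HADHB (-0.31), ECI1 (-0.38) and DECR1 (-0.49) lost theirs, and without replicate 2 HADHB (-0.35) and ECI1 (-0.37) did. With Wnt3a, 25 members were called without the untransfected array of slide 2, where 37.6% of all genes were, and 10 with the spike-ins. PPARA, PPARGC1A, PDK4, ACSL1, SLC25A20, ACADL, ACADM, ACAA1 and DECR2 were at -1.09, -2.49, -0.95, -1.77, -1.50, -1.71, -1.10, -1.03 and -0.81 without that array, and HADH at 0.36, all called. PDK4 lost its call without the untransfected array with Wnt3a of slide 1 (-0.66) or 3 (-0.54) or the array with FZD8_CRD and Wnt3a of slide 1, 2 or 3 (-0.74, -0.69 and -0.72), and HADHB was called with the replicate block (-0.31, adjusted p = 0.0454, 3 of 3 slides). CRAT, the carnitine acetyltransferase, at -0.50 (adjusted p = 0.0234, 3 of 3 slides), lost its call without the untransfected array with Wnt3a of slide 3 (-0.27) or that with FZD8_CRD and Wnt3a of slide 1 (-0.47) or 2 (-0.50).

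**Figure D4:**
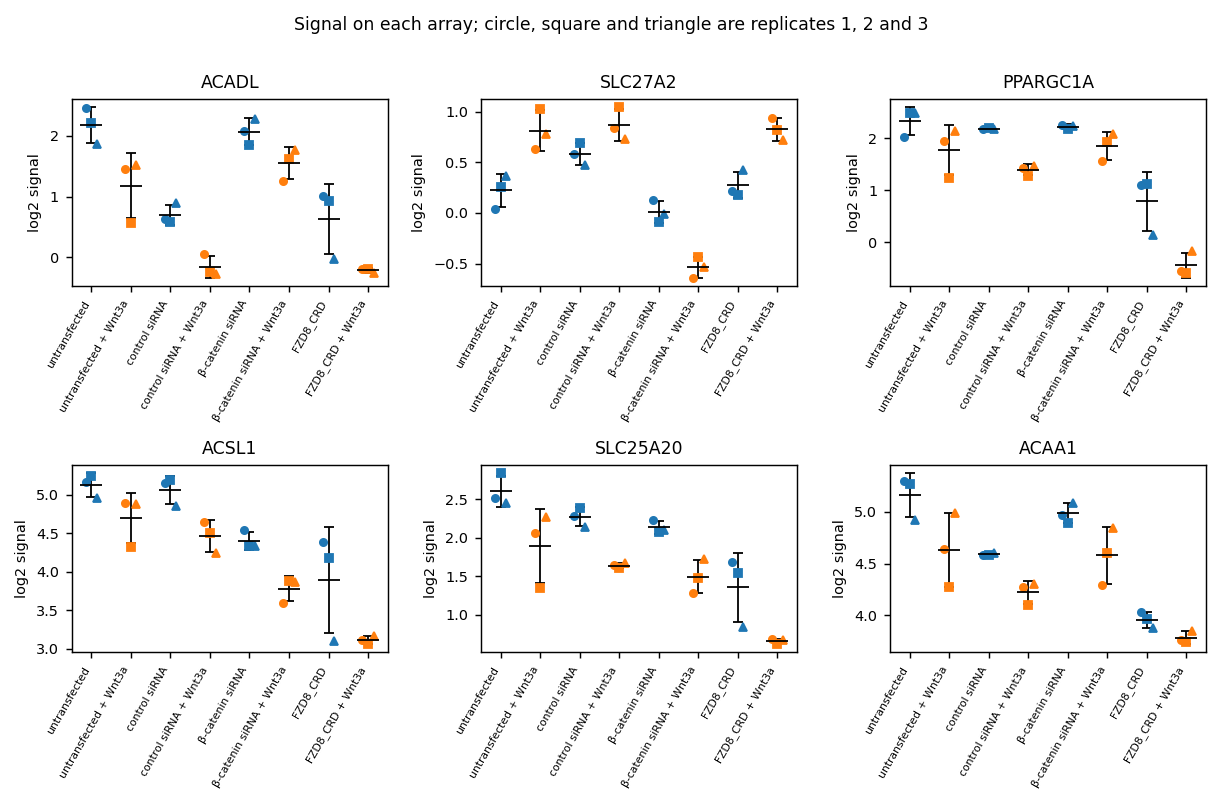
Log2 signal of ACADL, SLC27A2, PPARGC1A, ACSL1, SLC25A20 and ACAA1 on every array, by condition, with the mean and SD of 3 cultures; blue is without and orange with Wnt3a, and circle, square and triangle are replicates 1, 2 and 3. ACADL is low after control siRNA and with FZD8_CRD, and SLC27A2 is low after β-catenin siRNA with Wnt3a.

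The ketone body enzymes at both ends of the pathway differ in signal. BDH1, which turns acetoacetate into β-hydroxybutyrate, read -1.28, -3.69 and -5.01 in untransfected cells and the floor of -6.13 on all arrays after control siRNA and with FZD8_CRD. Its 3 untransfected arrays spread over more than 3 log2 units and all lie above the floor. BDH1 was lower on 3 of 3 slides after control siRNA and with FZD8_CRD. By the condition means it was at least 7-fold lower in each (adjusted p = 0.00204 and 0.000765), which not every slide reached. Untransfected replicate 1 carries much of this, and the bound was 3.45-fold without it and 12.5-fold without replicate 3, called in each case. After β-catenin siRNA the mean of BDH1 was at least 1.70-fold higher than after control siRNA, which was not called (adjusted p = 0.524). It was higher on 3 of 3 slides. With Wnt3a in untransfected cells it read -4.42, -6.13 and -5.06, which was not called (-1.88, adjusted p = 0.0679, 3 of 3 slides).

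The rest of the ketone body pathway was read from 9 of 11 listed genes that are not members. With FZD8_CRD 3 were higher and 4 lower without Wnt3a, and 3 and 4 with it, where 41.9% and 37.2% of all genes were called. OXCT1, the enzyme with which other tissues use ketone bodies, rose by 0.84 and 0.60 after β-catenin siRNA without and with Wnt3a (adjusted p = 0.00212 and 0.0208) and by 0.85 and 1.41 with FZD8_CRD (adjusted p = 0.00033 and 3.22e-06), on 3 of 3 slides in each. BDH2 fell by 0.82 after control siRNA (adjusted p = 0.00342) and by 1.17 with FZD8_CRD (adjusted p = 5.12e-05), and rose by 0.67 after β-catenin siRNA (adjusted p = 0.0244), on 3 of 3 slides, the first and the last sharing the control siRNA arrays.

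Other genes of fatty acid oxidation were read from lists. Of all genes, 5.6% were called with Wnt3a in untransfected cells, 22.3% after control siRNA, 41.9% with FZD8_CRD and 10.6% after β-catenin siRNA, and list counts are to be read beside these shares. Of 19 tested genes among 20 other mitochondrial oxidation enzymes, 1 was lower with Wnt3a in untransfected cells, 5 after control siRNA, and 11 were lower and 2 higher with FZD8_CRD, with medians of -0.27, -0.21 and -0.29. ACAD11, an acyl-CoA dehydrogenase, fell by 1.32 after control siRNA (adjusted p = 0.00107) and by 2.04 with FZD8_CRD (adjusted p = 3.92e-06), on 3 of 3 slides. After β-catenin siRNA 3 were higher, among them ECHDC2 at 0.54 (adjusted p = 0.00679, 3 of 3 slides). Of 29 other peroxisomal genes, all tested, 2 were lower with Wnt3a, 2 higher and 6 lower after control siRNA, and 2 higher and 12 lower with FZD8_CRD, with medians of -0.18, -0.14 and -0.20. Of all genes, 2.61%, 10.1% and 22.2% were called lower in these comparisons.

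Uptake, activation and carrier genes, 21 of 24 tested, were called lower for 1 gene with Wnt3a, for 7 after control siRNA with 2 higher, and for 12 with FZD8_CRD with 3 higher, with medians of -0.19, -0.13 and -0.38. FABP1, the liver fatty acid-binding protein, fell by 3.96 and 5.85 in the last 2 comparisons (adjusted p = 0.000947 and 5.23e-06), on 3 of 3 slides. After β-catenin siRNA 2 were higher and 2 lower, and the median of -0.05 was 0.03 with the spike-ins. CD36, a fatty acid receptor, fell by 0.55 without Wnt3a and by 0.83 with it (adjusted p = 0.00585 and 0.000126, 3 of 3 slides). Carnitine supply, 5 of 6 tested, had 0 called with Wnt3a in untransfected cells in limma (4 at an unadjusted p under 0.05), 2 lower after control siRNA and 2 lower with FZD8_CRD, with medians of -0.18, -0.39 and -0.27. SLC22A5, the carnitine transporter, rose by 0.31 and 0.41 after β-catenin siRNA without and with Wnt3a (adjusted p = 0.0187 and 0.00235, 3 of 3 slides).

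Targets of PPARα outside the members, 25 of 28 tested, had 3 lower and 1 higher with Wnt3a, 11 lower and 1 higher after control siRNA, and 18 lower and 3 higher with FZD8_CRD, with medians of -0.32, -0.49 and -0.79. CYP4A11, which hydroxylates fatty acids at the far end, fell by 2.26 after control siRNA (adjusted p = 0.00146) and by 3.90 with FZD8_CRD (adjusted p = 2.07e-06), on 3 of 3 slides. Other regulators, 30 of 32 tested, had 6 lower with Wnt3a, 9 lower and 3 higher after control siRNA, and 16 lower and 5 higher with FZD8_CRD, with medians of -0.15, -0.11 and -0.38. ACACB, whose product malonyl-CoA blocks CPT1, fell by 0.91, 0.98 and 2.10 in these comparisons (adjusted p = 0.013, 0.00169 and 3.61e-07, 3 of 3 slides in each). After β-catenin siRNA 3 were higher and 2 lower, among them PRKAA1, a catalytic subunit of AMPK, at 0.50 (adjusted p = 0.00807, 3 of 3 slides).

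The respiratory chain and the citric acid cycle take up the products of the members. Here 5.6%, 2.11%, 0.0406% and 8.29% of all genes were called with Wnt3a in the 4 cell states. Of 54 tested subunits of oxidative phosphorylation among 55, 18 fell and 0 rose with Wnt3a in untransfected cells, 13 fell in control siRNA cells, 0 were called in limma once β-catenin was silenced (30 at an unadjusted p under 0.05) and 30 fell with FZD8_CRD, with medians of -0.32, -0.37, -0.25 and -0.37. With FZD8_CRD against none, 28 fell, and 34 with Wnt3a, with medians of -0.27 and -0.30, where 41.9% and 37.2% of all genes were called. Control siRNA against none had 1 lower and a median of -0.09. Of 17 citric acid cycle genes, all tested, 4, 4, 0 and 9 fell with Wnt3a in the 4 cell states in limma (13 at an unadjusted p under 0.05 where 0 fell) and 7 with FZD8_CRD. CS, the citrate synthase, fell by 0.52, 0.51 and 0.58 with Wnt3a in untransfected, control siRNA and FZD8_CRD cells (adjusted p = 0.0188, 0.0334 and 0.00649, 3 of 3 slides in each).

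Some list counts rest on the arrays that stand apart. Without FZD8_CRD replicate 3, 48 of 54 oxidative phosphorylation subunits and 14 of 17 citric acid cycle genes fell with Wnt3a in FZD8_CRD cells, where 19.9% of all genes were called, CS by 0.74. With FZD8_CRD against none 14 and 4 fell, where 40.6% of all genes were called. For FZD8_CRD without Wnt3a the count lower was then 12 for uptake, activation and carriers, 9 for other mitochondrial enzymes, 11 for other peroxisomal genes, 4 for ketone bodies, 3 for carnitine supply, 15 for regulators, 19 for PPARα targets and 5 for fatty acid synthesis. OXCT1, BDH2, ACAD11, FABP1, CYP4A11 and ACACB were at 0.62, -1.06, -1.82, -5.62, -3.95 and -1.88, all called. Without the untransfected Wnt3a array of slide 2, 0 genes of all these lists were called for Wnt3a in untransfected cells in limma (25 subunits at an unadjusted p under 0.05), beside 0.73% of all genes, and ACACB and CS were at -0.68 and -0.36. With FZD8_CRD and Wnt3a, 45 subunits were lower without that array, where 37.6% of all genes were called, and OXCT1 was at 1.51.

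Fatty acid synthesis, the opposite route, was read from 13 of 15 genes. With Wnt3a in untransfected cells 0 were called in limma (2 at an unadjusted p under 0.05), and the median of -0.01 was 0.06 after quantile normalization. After β-catenin siRNA 8 fell without and 5 with Wnt3a, with medians of -0.44 and -0.31, where 10.6% of all genes were called in each setting. SREBF1, a regulator of lipid synthesis, fell by 0.72 and 0.66 (adjusted p = 0.00112 and 0.00198, 3 of 3 slides). With FZD8_CRD 3 were higher and 6 lower, with a median of -0.04.

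HepaRG cultures can hold more than 1 cell type, and in such bulk RNA fewer cells of a type and less RNA per cell cannot be told apart. Hepatocyte markers, 15 of 16 tested, differed widely between conditions. Their summed signal, in multiples of the 75th percentile, was 2276, 1648 and 1122 in untransfected cells, 595, 570 and 551 in control siRNA cells, 924, 646 and 839 where β-catenin was silenced, and 548, 358 and 499 with FZD8_CRD. With Wnt3a it was 1370, 590 and 1367, then 388, 272 and 387, then 370, 527 and 680, and 509, 509 and 501. ALB was the highest gene, except for SERPINA1 after control siRNA with Wnt3a, and TAT was at the floor on some arrays. Untransfected cells are the highest and spread the most, and the Wnt3a array of slide 2 is the lowest of its group for these markers as for the members. FZD8_CRD replicate 3 differs, with a median deviation of -0.33 for these markers, against -0.65 and -1.16 on its partners, where the members are at their lowest. Called lower were 14 of 15 after control siRNA and 14 with FZD8_CRD, with medians of -1.85 and -2.15, where 10.1% and 22.2% of all genes were called lower. With Wnt3a 0 were called in untransfected cells in limma (5 at an unadjusted p under 0.05), with a median of -0.71, and in FZD8_CRD cells the median was 0.07, or -0.02 with the spike-ins. Without FZD8_CRD replicate 3 that median was 0.22, and 14 were lower with FZD8_CRD against none. Their part in the results was not tested.

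**Figure D5:**
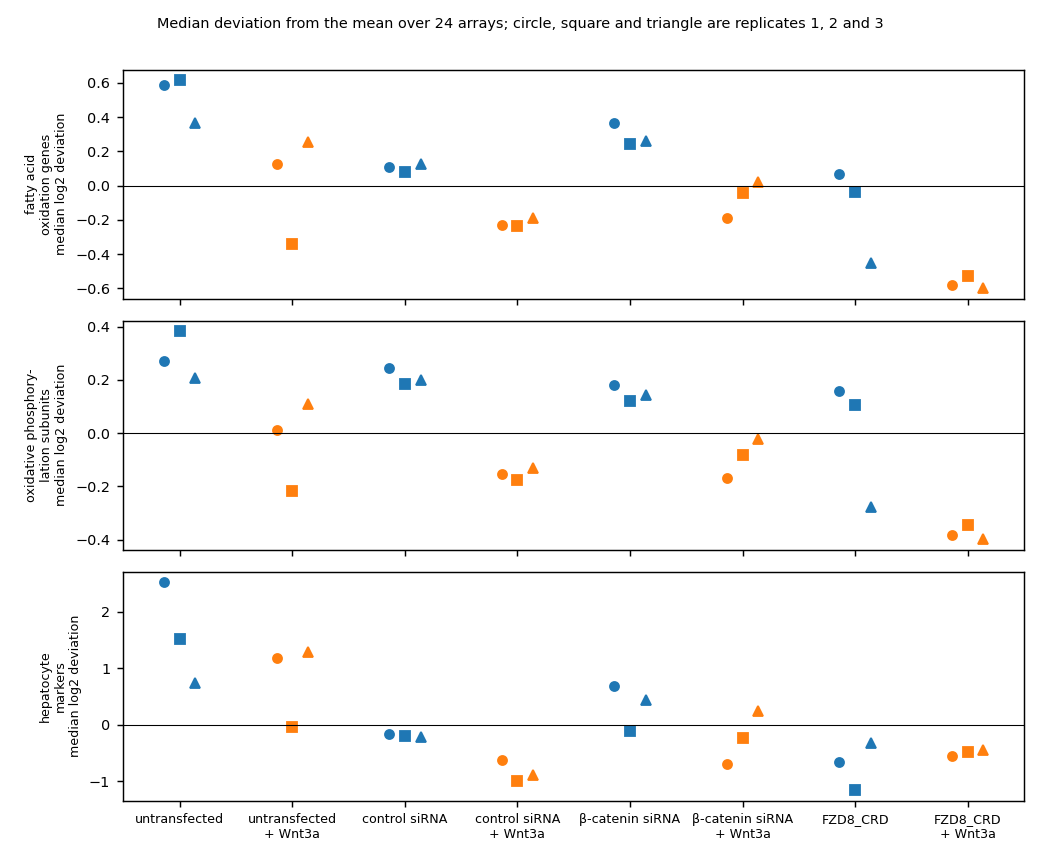
Median deviation on each array, in log2 units from each gene's mean over all arrays, of the 33 members, the oxidative phosphorylation subunits and the hepatocyte markers. On FZD8_CRD replicate 3 the members stand at -0.45, where the other arrays of that condition are at 0.07 and -0.04.

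Other cell types were read in the same way. Cholangiocyte and progenitor markers, 6 of 8 tested, summed to 304 to 361 in untransfected cells and to 349 to 446 with FZD8_CRD. With Wnt3a they summed to 340 to 372 and to 422 to 456, KRT19 being the highest. KRT19 had a mean of 7.93 in untransfected cells and 8.29 with FZD8_CRD, and 7.91 and 8.50 with Wnt3a. Every other tested marker of this list had a lower mean with FZD8_CRD in both settings. Without FZD8_CRD replicate 3, 0 were called higher and 1 lower, with a median of -0.32, where 40.6% of all genes were called. With Wnt3a, without the untransfected array of slide 2, 1 was higher and 3 lower, with a median of -0.44 (37.6%). Fibroblast and stellate markers were tested for 11 of 12, with DCN or ACTA2 the highest. They summed to 50.7 to 69.8 in untransfected cells and 94.9 to 101 with Wnt3a. Of them 7 rose with Wnt3a, where 5.6% of all genes were called, and 4 without the Wnt3a array of slide 2 (0.73%). After β-catenin siRNA they summed to 21.3 to 25.2, against 37.2 to 51.9 after control siRNA. Here 5 fell, where 10.6% of all genes were called. With FZD8_CRD they summed to 32.5 to 39.5, and to 44.8 to 47.1 with Wnt3a, below the untransfected cells in each setting. Without Wnt3a 2 were higher and 4 lower (41.9% of all genes called), and with Wnt3a 3 and 4 (37.2%). Without FZD8_CRD replicate 3 it was 3 and 5 (40.6%), and without the untransfected Wnt3a array of slide 2 it was 4 and 4 (37.6%). Endothelial markers, 5 of 6 tested, summed to at most 4.22 with KDR the highest, blood markers, 4 of 7 tested, to at most 6.75 with CD68 or CD14 the highest, and PLIN1, the only adipocyte marker tested of 4, to at most 0.0875. Their part in the results was not tested either.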

How the data were processed

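RNA of HepaRG cultures was measured on 24 Agilent microarrays, 3 for each of 8 conditions assigned from the sample labels. Per the file headers, the intensity values were background-subtracted and detrended within each array by Agilent Feature Extraction (version 10.7.3.1 in the labels), without normalization between arrays. The authors deposited log2 values for 25443 probes, scaled to the 75th percentile of the array and centred per probe, and these served as an alternative.

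Of 50683 probes, 28174 received a symbol through RefSeq transcripts, for 20503 genes. Spots marked as outliers were left out, signals were divided by the 75th percentile of their array (642.7 to 933.8 intensity units), taken as log2 and raised to a floor of -6.13. The filter kept probes that some condition showed well above background in each of its 3 cultures, 31061 for 24643 genes. Of these genes 15997 have a symbol, and the rest are probes without a symbol, counted as genes. 52 values were missing, and the probe with the highest mean stood for a gene.

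Means of 8 conditions were fitted in limma 3.58.1 (lmFit, contrasts.fit, eBayes with a trend) in R 4.3.3, with Benjamini-Hochberg adjusted p over all tested genes. The 12 comparisons were Wnt3a in 4 cell states, control siRNA against no transfection, β-catenin siRNA against control siRNA and FZD8_CRD against none, without and with Wnt3a, and 2 interactions. The fit was tested on simulated data. Tables and figures used Python 3.11.15, pandas 2.3.3, numpy 2.4.6, scipy 1.17.1 and matplotlib 3.10.9.

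Same-numbered arrays of different conditions, which share a slide, had deviations from their condition means that correlated at 0.38 on average, and other arrays at -0.19. Such deviations add up to 0 within a condition, so that the second value largely follows from the first. The replicate number was tried as a block. The other alternatives were quantile normalization, the 7 spike-in probes for scaling, normexp with offset 50 on the median signal, the deposited values, no filter, the mean of a gene's probes, only the conditions compared, the thresholds of the study (unadjusted p under 0.01, fold change above 1.5 or below 0.7), and leaving out replicates or arrays.

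Lists were the 8 roles of the members, 10 lists of related genes (uptake and carriers, other mitochondrial and peroxisomal oxidation genes, ketone bodies, carnitine supply, regulators, PPARα targets, oxidative phosphorylation, citric acid cycle, fatty acid synthesis) and 6 of cell type markers. Genes that may be named are the 33 members, CTNNB1 as the knockdown check, and genes of a list called in at least 1 comparison, at most 5 per list and comparison by adjusted p, and those printed were picked with their values in view. The members and lists were chosen with earlier results of these data known.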

Additional observations from a re-analysis of the deposited data

Results flagged for a closer look

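SLC27A2 was singled out because its Wnt3a effect differed in sign between cell states with every slide on the same side. The effect in untransfected cells (slides at 0.59, 0.77 and 0.42) exceeded that after β-catenin siRNA (-0.77, -0.34 and -0.53) by 1.14. The effect after β-catenin siRNA lay below that with FZD8_CRD (0.72, 0.64 and 0.29), a difference of -1.10. These differences were not tested, since the model compares the β-catenin siRNA with the control siRNA, where the interaction was -0.84 (adjusted p = 0.125).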

How the results depend on the processing

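Of 103 called results of single members, 23 were called under every alternative and every fit with arrays left out, and 1 reversed. The reversed result is HADH for FZD8_CRD without Wnt3a, at -0.0477 with the spike-ins. This follows from the scaling, which moves most genes of a comparison together. Here the all-gene median went from -0.09 to -0.46, so that HADH lies above that median in both. ACADL and SLC27A2 for β-catenin siRNA with Wnt3a were called in every fit.

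The number of members called moved by more than a factor of 1.5, or to or from 0, as follows. The share of all genes called in the same fit follows each count. With the spike-ins it was 2 (1.13%), 0 (0.227%) and 1 (0.962%) for Wnt3a in untransfected, control siRNA and FZD8_CRD cells, 5 (6.57%) and 0 (0.836%) for control siRNA without and with Wnt3a, 1 (0.698%) and 2 (2.6%) for β-catenin siRNA, and 10 (9.36%) for FZD8_CRD with Wnt3a. Without a filter it was 5 (2.05%) and 7 (3.39%) for Wnt3a in untransfected and FZD8_CRD cells and 6 (11.6%) and 1 (3.87%) for control siRNA without and with Wnt3a. With only the conditions compared it was 0 (0.00812%), 21 (5.39%) and 0 (0%) for Wnt3a in untransfected, control siRNA and FZD8_CRD cells, 0 (0.00406%) for control siRNA with Wnt3a, 14 (17.5%) and 8 (9.08%) for β-catenin siRNA, and 1 (0.166%) for its interaction with Wnt3a. In each case of 0, limma had members at an unadjusted p under 0.05: 1 for both with the spike-ins, and 23, 22 and 4 with the conditions compared. With the thresholds of the study it was 11 (2.76%), 3 (1.27%) and 10 (5.73%) for Wnt3a in control siRNA, β-catenin siRNA and FZD8_CRD cells, 1 (5.49%) for control siRNA with Wnt3a and 1 (0.568%) for the interaction with β-catenin siRNA. Quantile normalization and the deposited values gave 5 (9.38% and 11.7%) for control siRNA with Wnt3a and 6 (10.3% and 12.7%) for β-catenin siRNA without it. The replicate block gave 7 (4.36%) for Wnt3a after control siRNA and 6 (16.6%) and 7 (15.6%) for β-catenin siRNA without and with Wnt3a, and moved no other count by as much. The mean of probes and normexp moved none. The cause was not tested.

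With replicates or single arrays left out, the lowest and highest counts were 0 and 31 for Wnt3a in untransfected cells, 0 and 8 in control siRNA cells, 0 and 0 where β-catenin was silenced and 0 and 25 with FZD8_CRD. They were 0 and 18 for control siRNA, 0 and 11 with Wnt3a, 1 and 4 for β-catenin siRNA, 2 and 6 with Wnt3a, 16 and 24 for FZD8_CRD and 12 and 25 with Wnt3a. The interactions had 0 and 0 for β-catenin siRNA and 0 and 4 for FZD8_CRD. Fits with fewer arrays have less power. Signal over background limits BDH1, which is at the floor, 1.43% of the 75th percentile, in 4 conditions.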
